A study of Mus musculus with 3 samples.

Results

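Transcripts of lymphocytes were followed in macrophages sorted from tumor-bearing mice. The 37 genes were listed for their known roles in T cells, natural killer (NK) cells and B cells, with earlier results of these data known. Of the 37 genes, 35 were read on the array, and 17 of these lay above a floor of 5.3 on the log2 scale on at least 1 array. *Lck* and *Tcf7* had no probe set with a single gene symbol and were not analysed here. The data comprised 3 Affymetrix mouse expression arrays, 1 for each group, in a study that set macrophages of a primary tumor beside those of its metastases. mTAMs were tumor-associated macrophages from the metastatic lung, and pTAMs were those from the primary tumor, both taken 5 weeks after 4T1 cells, a carcinoma line derived from BALB/c mammary gland, were inoculated orthotopically in this strain. BMDM were macrophages differentiated in culture from bone marrow of healthy mice. Both TAM populations had been sorted for CD11b and for the macrophage antigen encoded by *Adgre1*. CD11b is also carried by some lymphocytes, among them mature NK cells and B-1 cells of the mouse. Tumor and lung tissue had been minced, digested with enzymes and separated on Percoll before the sort. Whether Ly6C was also used in the gate of the array samples, and how many animals went into each array, is not stated in the sources. BMDM differ from both TAM groups in culture, tissue and host, and these cannot be told apart.

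T cells recognise antigen through a receptor that signals through the CD3 chains and the zeta chain, with CD4 or CD8 as a coreceptor and the kinases Lck and Zap70 next in line. NK cells and cytotoxic T cells carry granules with perforin and granzymes, and B cells signal through immunoglobulin together with Cd79a and Cd79b. Macrophages make neither the CD3 chains nor rearranged immunoglobulin as part of their textbook programme, while some genes first known from lymphocytes, among them those of granzyme B and the IL-7 receptor, are also transcribed in certain other blood cells.

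There were no replicates, so no difference has a test or an error across animals, and precision is limited by the number of arrays. Values come from probe sets, groups of short probes for one transcript, and the only spread at hand was the disagreement of probe sets that read the same gene. Its SD was 0.28 for differences of mTAMs from pTAMs, 0.52 for mTAMs from BMDM and 0.43 for pTAMs from BMDM, on the log2 scale. Variation of animals, sorts and arrays is not in it. Of macrophage markers, 12 of 12 lay above the floor on every array. Among them, *Csf1r* had log2 values of 12.89 in mTAMs, 13.27 in pTAMs and 13.35 in BMDM. Lying above the floor is a weak check of the label, since 66.1% of all genes did so on at least 1 array. The linear signals of the macrophage markers summed to 64507 in mTAMs, 71721 in pTAMs and 58610 in BMDM. Those of 10 neutrophil markers summed to 79167, 34429 and 1680 in that order. The lists hold different genes and probe sets, so a sum can be compared between arrays but not between lists. Of the 12 macrophage markers, 2 were at least 2-fold lower in mTAMs than in pTAMs, against 2.58% of all genes, and none was higher. *Fcgr1* had 10.58 in mTAMs, 12.03 in pTAMs and 10.91 in BMDM, and *Aif1* had 10.62, 11.70 and 8.84 in that order. *Adgre1*, the gene of the sort antigen, had 10.06 in mTAMs, a value 0.06 lower in pTAMs and 11.93 in BMDM, and was 3.66-fold lower in mTAMs than in BMDM. The array medians were 5.43 in mTAMs, 5.43 in pTAMs and 5.36 in BMDM.

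Many lymphocyte genes were not seen above background. Of the 35 genes, 18 lay at or below the floor on all 3 arrays, with values between 2.87 and 5.27. They were *Cd3g* and *Cd247* of the T cell receptor complex, the coreceptor and surface genes *Cd8b1*, *Cd5* and *Cd6*, and *Ctla4*, *Foxp3* and *Il2ra*, which mark regulatory or activated T cells. The factors *Lef1*, *Tbx21* and *Eomes*, the effector and receptor genes *Gzma*, *Prf1*, *Klrd1*, *Ncr1* and *Ifng*, and the B cell receptor genes *Cd79a* and *Cd79b* were also among them. The widest range among these 18 was 0.81, for *Klrd1*, the CD94 chain of NK receptors, with log2 values of 3.18 in mTAMs, 3.68 in pTAMs and 2.87 in BMDM. *Prf1*, the perforin gene, counts among the 18 by the probe set used for it, while its other probe set had 5.36 in mTAMs, just above the floor, 4.97 in pTAMs and 5.19 in BMDM. The remaining 17 of 35 compare with 66.1% of all 18193 genes above the floor on at least 1 array. Each array had 16 lymphocyte genes above it.

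Many values did not move at all. Of the 35 genes, 11 had the same value to 2 decimals on all 3 arrays, against 18.5% of all genes. Among the 17 above the floor it was 3, *Cd4*, *Cd8a* and *Pax5*, against 6.89% of all genes above it. A value that lies above the floor and is the same on macrophages from culture, tumor and lung was not read as expression, since each probe set has a background of its own. The 17 genes split into 8 that ranged over at least 1 log2 unit across the arrays and 9 that ranged over less than 0.5. In the whole table, 29.6% of the genes above the floor ranged over at least 1 unit. The median range of the 17 was 0.41, against 0.61 for all genes above the floor, and that of the 18 low genes was 0.04, against 0.05. In bulk RNA, fewer cells of a type and less RNA per cell cannot be told apart.

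**Figure D1:**
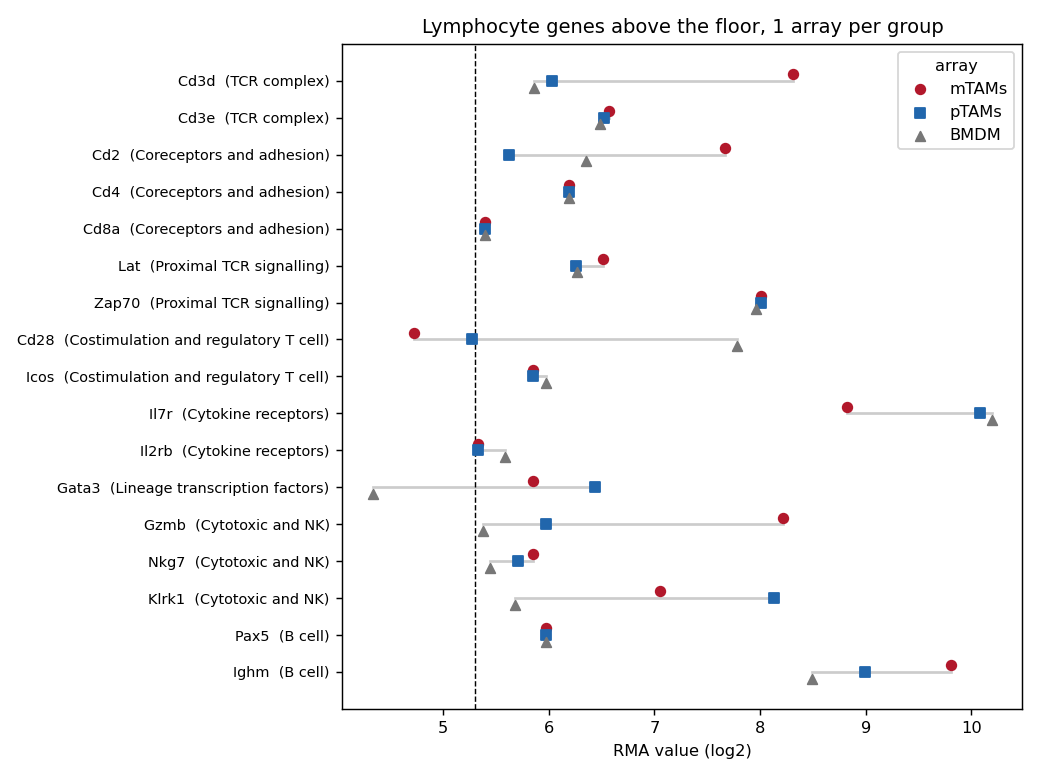
Log2 values (x axis) of the 17 lymphocyte genes above the floor (y axis, with their role), 1 point per array: circles for mTAMs, squares for pTAMs and triangles for BMDM. The dashed line is the floor of 5.3, the grey bar joins the lowest and the highest array, and *Cd3d*, *Cd2* and *Gzmb* have mTAMs apart on the right, while *Cd28* has BMDM apart on the right.

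**Figure D2:**
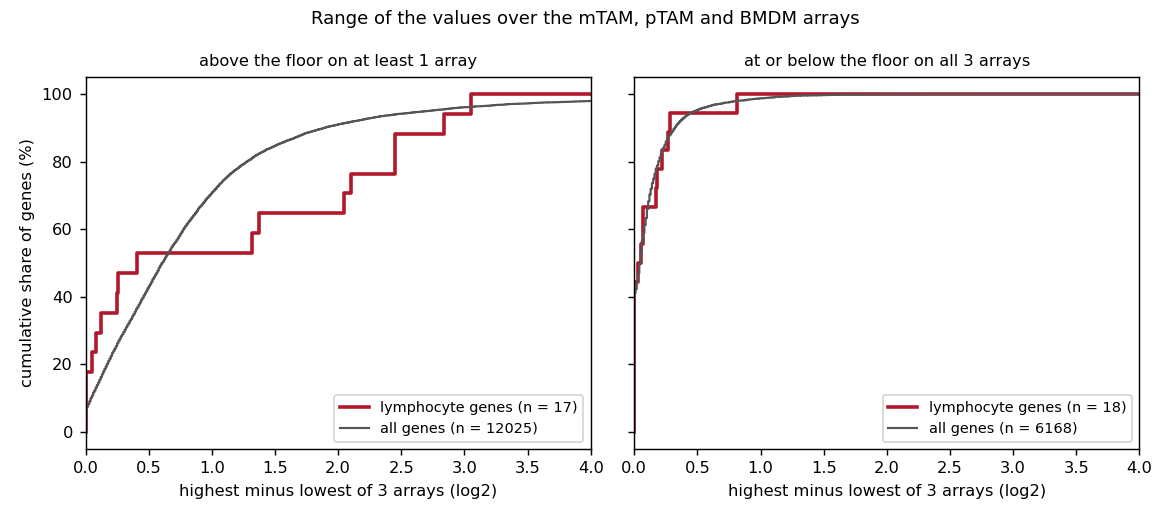
Cumulative share of genes (y axis, percent) by the difference between the highest and the lowest of the 3 arrays (x axis, log2), for the lymphocyte genes (red) and all genes (grey). Above the floor (left) the lymphocyte genes split, 9 of 17 under 0.5 and 8 of 17 over 1; at or below the floor (right) the curves run close together. The x axis ends at 4.

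Within the T cell receptor complex, 1 of 4 chains was higher in mTAMs. *Cd3d*, the delta chain of CD3, had a log2 value of 8.31 in mTAMs, 6.03 in pTAMs and 5.86 in BMDM. The mTAM array was thus high, and pTAMs and BMDM lay close to each other. Against pTAMs, *Cd3d* was 4.86-fold higher in mTAMs (log2 difference 2.28), and against BMDM it was 5.46-fold higher (2.45). Its partner chains did not follow. *Cd3e* had 6.57 in mTAMs, 6.52 in pTAMs and 6.49 in BMDM, *Cd3g* had 4.37, 4.44 and 4.22 in the same order, and *Cd247*, the zeta chain, had 4.02, 4.09 and 4.02. Each of the 3 CD3 genes was read by 1 probe set, so the difference of *Cd3d* could not be held against another probe set of the gene. *Tcra*, a probe set for the alpha chain locus of the receptor, lay at or below the floor, with 2.81 in mTAMs, 2.77 in pTAMs and 2.81 in BMDM.

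The 3 CD3 genes follow one another on chromosome 9, in the order *Cd3g*, *Cd3d*, *Cd3e*, and *Cd3g* and *Cd3d* are transcribed away from each other, with 1355 bases between their starts. Their promoters are shown because the neighbours gave such different values across the arrays. Each window runs from 250 bases before to 50 bases after the start, 5′ to 3′ on the strand of the gene, from RefSeq on GRCm38.p6: *Cd3d* chr9:44981536-44981835 (plus strand), *Cd3g* chr9:44980382-44980681 (minus strand) and *Cd3e* chr9:45009562-45009861 (minus strand). Capitals mark matches to the GATA motif, searched as AGATAA, the RUNX motif, searched as TGTGGT, the ETS motif, searched as CAGGAAG, the AP-1 motif, searched as TGAGTCA, or the CRE motif, searched as TGACGTCA. Both strands were searched, and no match overlapped another in the windows printed.
Cd3d: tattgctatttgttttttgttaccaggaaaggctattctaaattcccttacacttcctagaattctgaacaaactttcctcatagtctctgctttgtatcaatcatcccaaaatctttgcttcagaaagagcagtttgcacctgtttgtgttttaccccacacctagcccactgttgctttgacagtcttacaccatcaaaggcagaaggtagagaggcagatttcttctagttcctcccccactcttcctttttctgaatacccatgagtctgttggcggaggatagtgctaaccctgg
Cd3g: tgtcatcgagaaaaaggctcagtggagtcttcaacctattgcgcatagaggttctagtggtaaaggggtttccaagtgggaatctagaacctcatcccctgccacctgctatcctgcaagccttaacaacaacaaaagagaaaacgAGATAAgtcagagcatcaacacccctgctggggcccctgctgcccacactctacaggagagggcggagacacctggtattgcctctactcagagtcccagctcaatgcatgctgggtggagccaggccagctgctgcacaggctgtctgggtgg
Cd3e: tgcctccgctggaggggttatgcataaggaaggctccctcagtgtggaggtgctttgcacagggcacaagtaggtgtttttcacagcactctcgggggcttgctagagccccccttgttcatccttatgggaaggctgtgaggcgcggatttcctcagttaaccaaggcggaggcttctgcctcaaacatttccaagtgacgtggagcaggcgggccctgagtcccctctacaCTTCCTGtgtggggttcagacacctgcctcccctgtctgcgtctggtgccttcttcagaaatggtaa
The *Cd3d* window held none of these letters, that of *Cd3g* held the GATA letters and that of *Cd3e* the ETS letters. Such matches are common: of 32851 RefSeq mouse windows of this length, 11.2% held the GATA letters, 16.8% RUNX, 13.3% ETS, 5.2% AP-1 and 1.79% CRE. A match describes the sequence and is not a shown binding site.

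Of the coreceptors and adhesion molecules, *Cd2* stood apart. *Cd2*, which binds CD48 in mice and is found on T and NK cells and on mouse B cells, had 7.67 in mTAMs, 5.62 in pTAMs and 6.35 in BMDM. The mTAM value was 4.14-fold that of pTAMs (2.05) and 2.5-fold that of BMDM (1.32), and pTAMs were the lowest of the 3 arrays. *Cd4* had 6.19 on every array and *Cd8a* 5.40, and the second *Cd4* probe set was likewise the same on all 3, at 3.98. The 4 other probe sets of *Cd8a* lay at or below the floor. The coreceptor values were thus the same on all 3 arrays or at or below the floor. Nothing about *Cd3d* or *Cd2* was read from them.

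The signalling genes next to the receptor were flat. *Lat*, the membrane adaptor that Zap70 phosphorylates, had 6.51 in mTAMs, 6.26 in pTAMs and 6.27 in BMDM. *Zap70* had 8.01, 8.01 and 7.96 in the same order. Its other probe sets were lower, at 5.25, 5.21 and 5.36 and at 4.37, 4.32 and 4.42, so the high value of 8.01 was that of 1 probe set only.

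*Cd28* showed the widest range of the 35 genes, and here BMDM were high. *Cd28*, the costimulatory receptor for B7 ligands on T cells, had 4.73 in mTAMs, 5.27 in pTAMs and 7.78 in BMDM. Both TAM arrays were at or below the floor, so *Cd28* was lower than in BMDM by at least 5.58-fold in mTAMs and in pTAMs. A second probe set gave the same order, with 3.82 in mTAMs, 4.13 in pTAMs and 7.09 in BMDM. No other T cell gene of the 35 had BMDM apart in this way. *Icos*, the related inducible costimulator, had 5.85 in mTAMs, 5.85 in pTAMs and 5.97 in BMDM.

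Of the cytokine receptors, *Il7r* was lower in mTAMs. *Il7r*, the alpha chain of the receptor for IL-7, which lymphocytes need for survival, had 8.82 in mTAMs, 10.08 in pTAMs and 10.19 in BMDM. It was 2.39-fold lower in mTAMs than in pTAMs (-1.26) and 2.58-fold lower than in BMDM (-1.37), while pTAMs and BMDM differed by 0.11, less than the SD between probe sets. The second probe set, with 7.61 in mTAMs, 9.16 in pTAMs and 8.80 in BMDM, also had mTAMs lowest but turned the order of pTAMs and BMDM. *Il2rb*, a chain shared by the IL-2 and IL-15 receptors, had 5.33 in mTAMs, 5.33 in pTAMs and 5.59 in BMDM. The *Il7r* promoter (chr15:9529827-9530126, minus strand, GRCm38.p6) is shown because the gene differed on both of its probe sets; capitals mark the same letters as above.
Il7r: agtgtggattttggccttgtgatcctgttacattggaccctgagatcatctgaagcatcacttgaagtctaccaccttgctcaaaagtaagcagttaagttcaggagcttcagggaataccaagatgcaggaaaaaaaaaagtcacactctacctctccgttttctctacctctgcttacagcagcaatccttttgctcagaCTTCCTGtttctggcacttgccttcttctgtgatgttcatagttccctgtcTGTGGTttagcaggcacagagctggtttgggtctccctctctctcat
It held the ETS letters before the start and the RUNX letters just after it.

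*Gata3*, a factor of T helper 2 cells, T cell development and innate lymphoid cells that is also expressed in mammary epithelium, was above the floor, unlike *Lef1*, *Tbx21* and *Eomes*. Its values were 5.85 in mTAMs, 6.44 in pTAMs and 4.34 in BMDM. Both TAM arrays were above the floor and BMDM below it, so *Gata3* was at least 1.46-fold higher in mTAMs and at least 2.2-fold higher in pTAMs. As measured, the differences were 1.51 and 2.10, and the first is a call on the measured value whose bound lies under 2-fold. mTAMs and pTAMs differed by 1.51-fold (-0.59), with pTAMs the higher. Of 14 epithelial and carcinoma genes on the array, 11 were above the floor, against 66.1% of all genes. Of the 11, none was at least 2-fold higher and 2 were lower in mTAMs than in pTAMs, against 2.58% of all genes lower. The median difference of these 11 was -0.63, and *Epcam* was the same in both TAM arrays, at 6.53. Their summed linear signal came to 2575 in mTAMs, 4646 in pTAMs and 538 in BMDM. *Cdh1*, E-cadherin, had 8.16 in mTAMs, 9.88 in pTAMs and 4.73 in BMDM, *Krt18* had 8.92, 9.77 and 3.78 in that order, and *Krt14*, *Cldn7* and *Esrp1* were at or below the floor on all arrays. Their part in the *Gata3* values was not tested.

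Among the 8 cytotoxic and NK genes, *Gzmb* and *Klrk1* differed and in opposite directions between the TAM arrays. *Gzmb*, granzyme B, a serine protease that cytotoxic cells deliver into their targets, had 8.22 in mTAMs, 5.97 in pTAMs and 5.38 in BMDM. The mTAM value exceeded that of pTAMs 4.76-fold (2.25) and that of BMDM 7.16-fold (2.84). *Klrk1*, which encodes the activating receptor NKG2D, had 7.05 in mTAMs, 8.13 in pTAMs and 5.68 in BMDM. *Klrk1* was 2.11-fold lower in mTAMs than in pTAMs (-1.08), 2.58-fold higher in mTAMs than in BMDM (1.37) and 5.46-fold higher in pTAMs than in BMDM (2.45). *Nkg7*, a granule membrane protein of NK and T cells, had 5.85 in mTAMs, 5.71 in pTAMs and 5.44 in BMDM, a range of 0.41. *Gzma*, another granzyme gene, was at 4.57 on all 3 arrays and *Ifng* at 3.18. The *Prf1* probe set used was at 5.27 on each array, and its second one was 0.39 higher in mTAMs than in pTAMs, as given above. *Ncr1*, the NKp46 receptor that defines mouse NK cells, had 4.47 in mTAMs, 4.19 in pTAMs and 4.27 in BMDM.

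The promoters of *Gzmb* (chr14:56262285-56262584, minus strand) and *Klrk1* (chr6:129623815-129624114, minus strand; both GRCm38.p6) are shown because both genes were above the floor on every array and their order in mTAMs and pTAMs was opposite.
Gzmb: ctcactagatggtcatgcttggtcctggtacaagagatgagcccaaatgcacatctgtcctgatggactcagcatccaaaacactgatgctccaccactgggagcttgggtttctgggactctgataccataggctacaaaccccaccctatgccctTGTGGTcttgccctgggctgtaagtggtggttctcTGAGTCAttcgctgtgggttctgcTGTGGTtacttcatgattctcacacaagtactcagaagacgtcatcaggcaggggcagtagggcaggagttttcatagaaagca
Klrk1: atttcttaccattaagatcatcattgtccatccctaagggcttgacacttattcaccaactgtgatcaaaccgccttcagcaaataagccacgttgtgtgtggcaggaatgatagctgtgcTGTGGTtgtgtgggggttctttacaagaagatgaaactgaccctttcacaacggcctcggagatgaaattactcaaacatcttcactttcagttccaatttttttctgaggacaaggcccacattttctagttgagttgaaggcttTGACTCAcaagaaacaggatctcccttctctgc
Both windows held the RUNX letters, 2 times in *Gzmb* and 1 time in *Klrk1*, and both held the AP-1 letters, which lay before the start in *Gzmb* and after it in *Klrk1*. The windows therefore did not differ in which of the letters they held. A promoter window was at hand for 27 of the 37 genes and for 5 of the 8 that ranged over at least 1 unit.

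Of the B cell genes, *Ighm* was high on every array and highest in mTAMs. *Ighm*, the constant region of the IgM heavy chain, had 9.81 in mTAMs, 8.99 in pTAMs and 8.49 in BMDM. The excess in mTAMs was 1.77-fold over pTAMs (0.82) and 2.5-fold over BMDM (1.32). The gene had 11 probe sets and they disagreed. The next highest had 8.66 in mTAMs, 8.08 in pTAMs and 7.46 in BMDM and gave the same order, but the others above the floor gave differences of mTAMs from BMDM of 0.45, 0.09 and 0.03. The only one of these whose name ends in _at without an added letter gave 0.03. The *Ighm* call thus rests on probe sets with an added letter, _s_at for the one used and _a_at for the next highest. What else these probe sets read was not examined. *Pax5*, the factor that fixes B cell identity, was at 5.97 on every array, and *Cd79a* at 4.57.

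**Figure D3:**
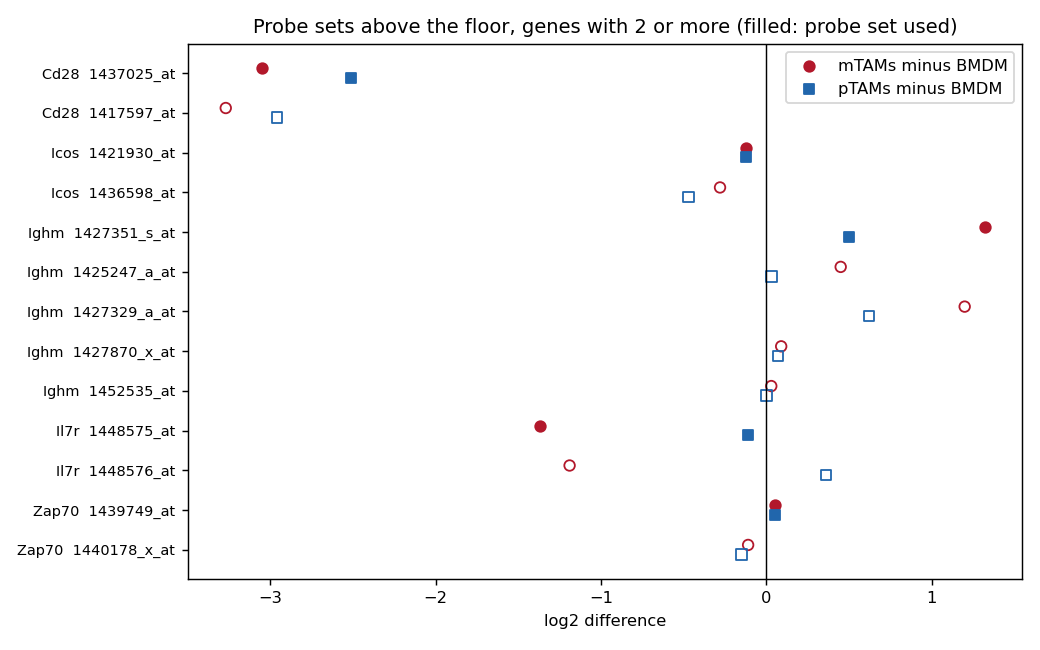
Log2 differences (x axis) of mTAMs from BMDM (circles) and of pTAMs from BMDM (squares) for each probe set above the floor (y axis, gene and probe set) of the lymphocyte genes with at least 2 such probe sets. Filled symbols are the probe set used for the gene. The probe sets of *Cd28* lie together below 0, those of *Il7r* have mTAMs lower in both, and those of *Ighm* spread between 0.03 and 1.32 for mTAMs.

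Counted over the list, the comparisons were as follows. In mTAMs against pTAMs, 16 of the genes could be compared, and 3 were at least 2-fold higher (*Cd3d*, *Cd2* and *Gzmb*), against 5.36% of 11801 genes, and 2 lower (*Il7r* and *Klrk1*), against 2.58%. The median difference was 0.00, and -0.06 over all genes. In mTAMs against BMDM, 6 of 17 were higher (*Cd3d*, *Cd2*, *Gata3*, *Gzmb*, *Klrk1* and *Ighm*), against 11.5% of 11945 genes, and 2 lower (*Cd28* and *Il7r*), against 14.4%, with a median of 0.08, and -0.11 over all genes. In pTAMs against BMDM, 2 of 17 were higher (*Gata3* and *Klrk1*), against 8.78% of 11859 genes, and 1 lower (*Cd28*), against 7.5%, with a median of 0.00, and -0.05 over all genes. The comparisons share arrays, so their counts are not independent. A gene that passed the floor only through its higher array had to differ, as *Gata3* and *Cd28* did against BMDM, and nothing was read from the counts beyond the genes named. Of the 8 genes that ranged over at least 1 unit, mTAMs were the highest array in 4, pTAMs in 2 and BMDM in 2. This split was not counted over all genes, and nothing was read from it.

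Further markers of lymphocytes were mostly low. Of 23 other T cell markers on the array, 7 lay above the floor, against 66.1% of all genes. Of these 7, 1 exceeded its pTAM value in mTAMs by 2-fold or more, against 5.36% of all genes compared. This was *Satb1*, a chromatin organiser abundant in thymocytes, with 8.82 in mTAMs, 5.41 in pTAMs and 3.65 in BMDM, a 10.6-fold excess in mTAMs over pTAMs. *Thy1*, *Bcl11b*, *Themis* and *Trat1*, all typical of T cells, were at or below the floor on every array. Of 14 other NK and innate lymphoid markers, 4 were above it and 1 was higher in mTAMs than in pTAMs, *Il18rap*, a chain of the IL-18 receptor, with 10.31 in mTAMs, 8.36 in pTAMs and 6.72 in BMDM. Of 19 other B and plasma cell markers, 9 were above the floor. Of the 8 that could be compared between mTAMs and pTAMs, 3 were higher in mTAMs as measured. *Jchain* was below the floor in pTAMs, so it had to be higher in mTAMs. Set against the floor, 2 of the 3 remained at least 2-fold higher. *Jchain*, which joins IgM and IgA into multimers, had 6.23 in mTAMs, 4.13 in pTAMs and 4.15 in BMDM, a bound of at least 1.91-fold over pTAMs, *Cd22*, an inhibitory receptor of B cells, had 8.74, 7.08 and 6.95 in that order, and *Cd37*, a leukocyte tetraspanin, had 10.46, 8.33 and 9.13. *Ly6d* went the other way, with 4.85 in mTAMs, 5.56 in pTAMs and 5.10 in BMDM. It was above the floor in pTAMs only, so it had to be lower in mTAMs. *Ms4a1*, which encodes CD20, was at or below the floor with 4.66 in mTAMs, 4.04 in pTAMs and 3.81 in BMDM.

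Of 28 antigen receptor gene segments and constant regions on the array, 5 were above the floor, against 66.1% of all genes. *Igkv8-30*, a kappa light chain variable segment, had 5.51 in mTAMs, 3.83 in pTAMs and 3.77 in BMDM. It was the 1 segment with mTAMs over pTAMs by at least 1 log2 unit, a bound of at least 1.16-fold. Its pTAM value was below the floor, so it had to be higher in mTAMs. *Trav9d-3* had 6.08 in mTAMs, 6.41 in pTAMs and 5.90 in BMDM, *Igha* had 5.97, 5.82 and 5.97 in that order, and *Ighg3* had 5.56 on each array.

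The signalling pathways downstream of the antigen receptors, which macrophages share in part, were mostly present. Of 23 other genes of T cell receptor signalling, 21 were above the floor, against 66.1% of all genes. Of these 21, 2 were higher and 1 lower in mTAMs than in pTAMs, against 5.36% and 2.58% of all genes. *Pag1*, an adaptor that recruits Csk, had 11.12 in mTAMs, 9.64 in pTAMs and 8.34 in BMDM, and *Nck1*, an adaptor to the cytoskeleton, had 9.47, 8.26 and 8.70 in that order. *Rasgrp1*, a Ras activator, was lower in mTAMs than in pTAMs, with 7.37 in mTAMs, 8.66 in pTAMs and 4.43 in BMDM. All 14 other B cell receptor signalling genes on the array were above the floor, with 1 higher (*Cd22*) and 1 lower in mTAMs than in pTAMs. *Cd22* is also on the list of other B and plasma cell markers, so its call is counted in both lists. The lower gene was *Bach2*, a repressor of plasma cell differentiation, with 5.92, 7.23 and 4.36 in mTAMs, pTAMs and BMDM.

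Among the lists for other blood cells, 2 had several genes higher in mTAMs than in pTAMs, those for mast cells and basophils and for neutrophils. Of 11 mast cell and basophil markers, 7 lay above the floor, against 66.1% of all genes. All 7 were higher in mTAMs than in pTAMs by at least 1 log2 unit as measured, against 5.36% of all genes. In 4 of the 7 genes the pTAM value was at or below the floor, so these had to differ in this direction. Set against the floor, 5 of the 7 remained at least 2-fold higher. *Mcpt8*, a basophil protease, had 8.90 in mTAMs, 4.89 in pTAMs and 4.66 in BMDM. *Hdc*, the histamine-forming enzyme, had 12.40, 9.99 and 6.20, and *Kit*, the stem cell factor receptor, had 8.83, 5.95 and 4.00 in that order. Their linear signals summed to 6768 in mTAMs, 1297 in pTAMs and 315 in BMDM, most of it from *Hdc* in both TAM arrays, and without *Hdc* to 1363 in mTAMs, 280 in pTAMs and 242 in BMDM, while *Fcer1a*, *Cma1*, *Tpsb2* and *Mcpt4* were at or below the floor on all arrays. All 10 neutrophil markers on the array lay above the floor in both TAM arrays, while 66.1% of all genes did so on at least 1 array. Of them, 7 were higher in mTAMs than in pTAMs, against 5.36% of all genes. Their median difference was 1.80, and their signals summed to 79167 in mTAMs, 34429 in pTAMs and 1680 in BMDM. Without *S100a9*, the highest of them in mTAMs, the sums were 58996, 20652 and 1467 in that order. *Cxcr2*, a neutrophil chemokine receptor, had 11.32 in mTAMs, 8.18 in pTAMs and 5.14 in BMDM. Of 11 markers of conventional dendritic cells, 9 were above the floor, and of 9 for plasmacytoid dendritic cells 7 were, against 66.1% of all genes. Of the conventional dendritic cell markers 1 was higher in mTAMs than in pTAMs, and no plasmacytoid marker was called in that comparison. The part of such cells in the values of *Cd3d*, *Cd2*, *Gzmb*, *Ighm*, *Satb1* and *Il18rap* was not tested.

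**Figure D4:**
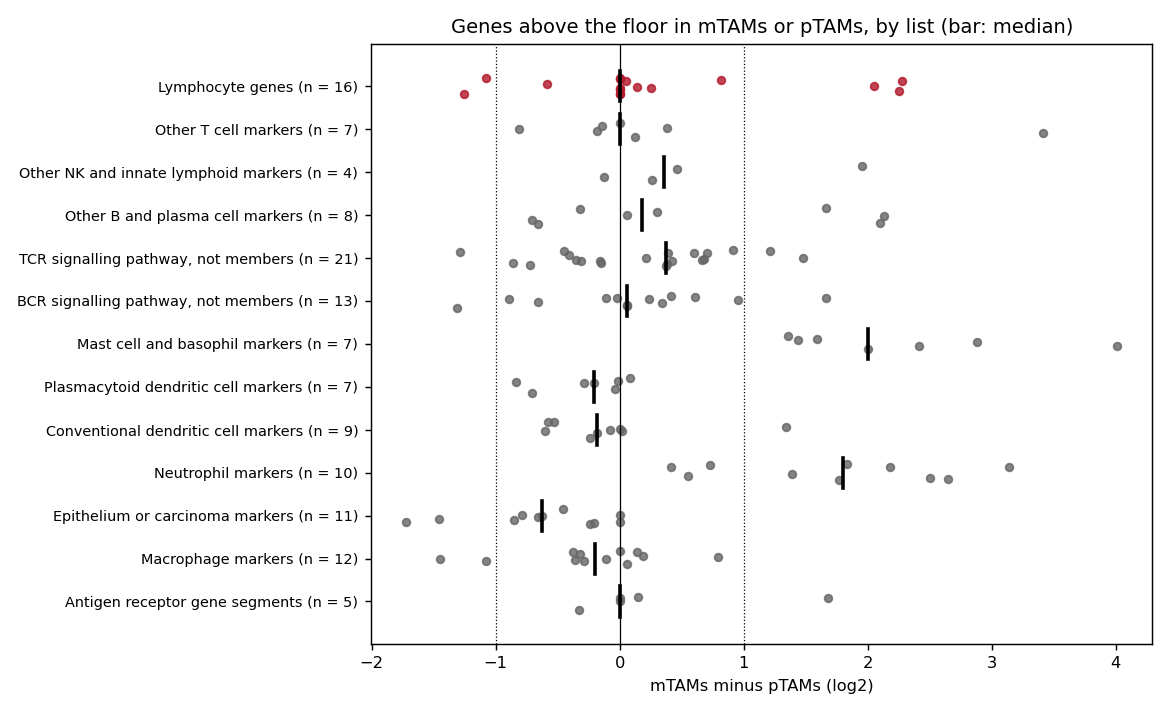
Log2 differences of mTAMs from pTAMs (x axis) for the genes above the floor on either array, by list (y axis, with the number of genes); each point is a gene and the black bar is the median of its list. The lymphocyte genes (red) centre on 0.00 with *Cd3d*, *Gzmb* and *Cd2* apart on the right, while the 7 mast cell and basophil genes, of which 4 are at or below the floor in pTAMs, lie right of 1 and the neutrophil list has its median at 1.80; dotted lines are differences of 1 in each direction.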

How the data were processed

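Total RNA of the 3 macrophage populations was hybridised to Affymetrix mouse arrays. The authors deposited log2 values made with RMA (background correction, quantile normalization between arrays and summarising of each probe set; version not given in the sources used here), for 45037 probe sets to 2 decimals. Quantile normalization hides any shift of the whole transcriptome. Of the probe sets, 34945 had a single symbol, 932 several and 9160 none; each of 18193 genes was read from its single-symbol probe set with the highest mean. A comparison took the genes above 5.3 on either of its arrays and called them at a log2 difference of 1. Folds against values at or below 5.3 were set against 5.3 and are lower bounds. The 95th percentile of 84 sensory receptor probe sets was 5.56. Each gene above the floor was named, and those below it were counted and named. From each marker list, up to 4 genes were named, taken from the 4 with the largest difference between mTAMs and pTAMs in either direction. Not all of these 4 were named for every list, and called genes were preferred. Genes outside this rule were chosen after their values were seen, among them *Thy1*, *Bcl11b*, *Themis*, *Trat1*, *Ms4a1* and *Tcra*. The genes, lists and rules were chosen with earlier results of these data known. *Cd3eap*, no receptor gene, was taken out of a list and the antigen receptor segments were added after the data were seen. Calls were tested on simulated data whose values were kept well above the floor and whose planted differences exceeded the cutoff. That test does not cover genes near the floor. Alternatives were median-centring, quantile and cyclic loess normalization, other probe set and floor choices and a 3-fold threshold. Work was done in Python 3.11.15 (numpy 2.4.6, pandas 2.3.3, matplotlib 3.10.9) and R 4.3.3 with limma 3.58.1.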

Additional observations from a re-analysis of the deposited data

Results flagged for a closer look

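Probe sets annotated to several genes were not used for the values above. Of 19 such probe sets for antigen receptor, NK receptor or related genes, 5 lay above the floor and 4 of them were at least 1 log2 unit higher in mTAMs than in BMDM, which drew attention to them as signal outside the main measurement. The 3 annotated to the same set of immunoglobulin kappa genes had log2 values of 8.95, 9.45 and 9.24 in mTAMs, 6.04, 6.42 and 5.69 in pTAMs and 5.59, 5.69 and 5.42 in BMDM. They were higher in mTAMs than in BMDM by 3.36, 3.76 and 3.82, or 10.3-fold, 13.5-fold and 14.1-fold, and higher in mTAMs than in pTAMs by 2.91, 3.03 and 3.55. They share their annotation and are not independent of each other. The probe set annotated to a pair of Ly49 receptor genes had 7.90 in mTAMs, 6.58 in pTAMs and 6.80 in BMDM, a difference of mTAMs from BMDM of 1.10. With 1 array per group, none of these differences was tested.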

How the results depend on the processing

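No paired analysis was possible because each group had 1 array. Of 94 counts and medians under the alternatives, 89 stayed within the set margin. With a floor 1 log2 unit higher, 11 genes were above it in place of 17, and the median of mTAMs against BMDM was 0.78 in place of 0.08. At a 3-fold threshold, 2 genes were higher (*Cd3d* and *Gzmb*) and 1 lower (*Cd28*) in mTAMs than in BMDM, and 0 were lower in mTAMs than in pTAMs. A floor of 5.56, added after seeing the data, left 16 genes above it, without *Cd8a*. Of 255 values of single genes, 250 stayed within the SD between probe sets and 5 moved beyond it. Part of this was fixed in advance. The probe set choices could not move genes with 1 probe set, among them *Cd3d*, *Cd2*, *Gzmb* and *Klrk1*. Median-centring could not move mTAMs against pTAMs, whose array medians are equal. No difference past 1 log2 unit changed sign, while 8 values of 4 genes (*Cd3e*, *Zap70*, *Lat* and *Il7r*) did, none of them over 0.11 in size as reported. The 5 that moved were all *Ighm*. Its difference of mTAMs from BMDM was 0.42 as the mean of all probe sets. It was 0.03 when probe sets without an added letter in the name were taken first. Cyclic loess moved the median of all genes in mTAMs against BMDM to 0.00, in place of -0.11, and the share of calls that were higher to 55.2%, in place of 44.4%. Signal near background limits the low genes, and 1 array per group limits all of them.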
